A study of Rattus norvegicus with 6 samples.

Results

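The genes of the core spliceosome were studied in H9c2 cells, 55 of the 16319 gene symbols in the count table. They were taken by a rule on names, chosen with earlier results of these data known. It takes symbols that start with Snrp, the numbered Sf3a, Sf3b, Prpf and Lsm genes, the U2af genes, and Snu13, Snw1, Cdc5l, Aqr and Eftud2. Symbols that start with Snrnp are not taken by this rule and are described below as a companion list. The spliceosome removes introns from pre-mRNA. Its main building blocks are small nuclear ribonucleoproteins (snRNPs), each made of a small nuclear RNA (U1, U2, U4, U5 or U6), a ring of Sm or LSm proteins and proteins particular to that snRNP. U1 and U2 mark the ends of the intron, the U4/U6 and U5 snRNPs join them, and the Prp19 complex and helicases then rearrange the assembly into its catalytic form. All of this is general machinery that dividing and differentiated cells both use.

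H9c2 cells are myoblasts, grown as a line that was taken from the heart of a rat embryo. The Nono-KO line was made by transfecting a CRISPR-Cas9 plasmid with a puromycin marker that carried a guide to exon 6 of Nono, followed by selection, and the scheme of the line shows the expansion of a single clone. The WT cells are H9c2 with the wild type genotype, and a pEGFP-N1 plasmid is named as the control of the transfection. Poly(A) RNA was sequenced as stranded libraries, 3 of Nono-KO cells and 3 of WT cells, with no other treatment named. Whether the libraries came from separate cultures is not stated beyond their being replicates, so the p-values below measure the spread between these libraries, and the genotype cannot be told apart from other features of 1 clone.

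Total counts were 17612958 to 18770188 in the Nono-KO libraries, against 18138400 to 19253858 in the WT libraries. The counts of Nono itself were 109, 94 and 96 in Nono-KO and 7329, 5884 and 5519 in WT libraries. Counts are given below as counts per 1000000 (CPM), with library totals scaled by TMM factors, and a positive log2 fold change means a higher level in Nono-KO. A gene is said to rise or fall where the adjusted p was under 0.05 in edgeR's quasi-likelihood test, adjusted over all 12028 genes tested. The labelled cell type was checked against its markers. Of 12 cardiomyocyte markers 6 were tested and 3 rose (Actn2, Nkx2-5 and Pln), of which Actn2 had 3 counts in each WT library. The summed level of the list was 178 to 205 CPM in Nono-KO cells and 48.9 to 128 CPM in WT cells. Tnnt2, which did not pass (adjusted p = 0.18 from edgeR), made up most of the Nono-KO sum. It had 111, 135 and 137 CPM in Nono-KO cells, against 13.4, 78.0 and 83.0 CPM in WT cells. Of the same list Ryr2 and Tbx5 had 0 to 1 counts in every library, whereas the cardiac factors Nkx2-5 and Gata4 were present in all libraries. Nkx2-5 had 37.8 to 42.2 CPM in Nono-KO cells and 17.7 to 24.3 CPM in WT cells. Gata4, which did not pass, had 17.5 to 20.1 CPM in Nono-KO cells and 15.1 to 17.3 CPM in WT cells. Of 9 myoblast markers only 4 were in the count table, which lacks Myf5, Myf6, Pax7, Pax3 and Msc. Of these 4 Myog and Des rose, and the sum was 870 to 968 CPM in Nono-KO cells and 565 to 747 CPM in WT cells. Most of this sum was Cdh15 (540 to 601 CPM in Nono-KO, 419 to 573 CPM in WT), which did not pass. Of 6 smooth muscle markers 5 rose (sum 14600 to 15700 CPM in Nono-KO, 6640 to 7490 CPM in WT), and of 6 fibroblast markers tested 2 rose and 3 fell (28800 to 34000 CPM in Nono-KO, 37400 to 45200 CPM in WT). The part of these changes in the values below was not tested, and in bulk RNA fewer cells with a transcript and less of it per cell cannot be told apart.

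The core spliceosome genes did not move as a block in Nono-KO cells. Of the 54 members tested, 18 rose (33.3%), 20 fell (37.0%) and 16 did not pass. Over all genes 34.2% rose and 38.1% fell, and 70.4% of members against 72.2% of all genes moved in either direction, so the shares of the members lie near the background. The median log2 fold change was 0.05 for the members and -0.05 for all genes, and single members ran from -1.54 (Prpf4b) to 1.48 (Prpf40b). At the study's own threshold (adjusted p below 0.01 with a log2 fold change beyond 1 in either direction) 3 members rose (5.56%, against 10.8% of all genes) and 6 fell (11.1%, against 18.7%). In 21 members (38.9%) every Nono-KO library lay above every WT library, against 36.1% of all genes, and in 17 (31.5%) every Nono-KO library lay below, against 39.0%. The summed level of all members was 4750, 4750 and 4630 CPM in Nono-KO cells, against 4350, 4250 and 4350 CPM in WT cells. Prpf19, the largest single part of this sum, had 729, 754 and 672 CPM in Nono-KO cells, against 478, 485 and 507 CPM in WT cells. The sum over all tested genes was 1030000, 1040000 and 993000 CPM in Nono-KO cells, against 958000, 970000 and 1020000 CPM in WT cells. So the sum of the members is not read as a rise of the whole list. The members are described below by the building block they belong to. Each block holds few members, so its share of risen or fallen genes is coarse.

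**Figure D1:**
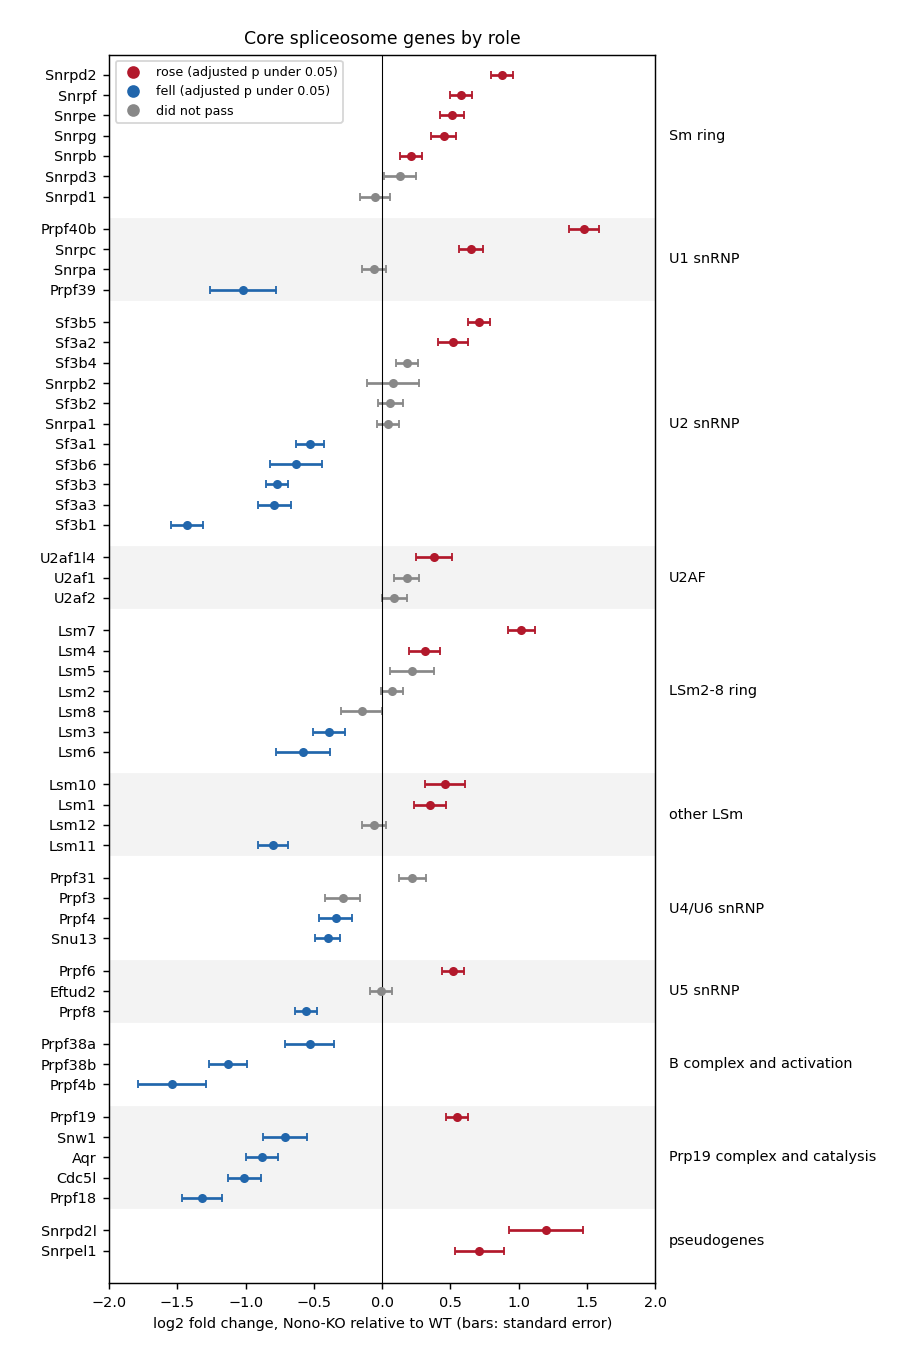
Log2 fold change between Nono-KO and WT (horizontal axis, positive where Nono-KO is higher) with its standard error for the tested members, grouped by role and sorted within the role (vertical axis), with colours for members that rose, fell or missed the threshold of 0.05 for the adjusted p. Of 7 Sm ring genes 5 rose and 0 fell, whereas 3 of 3 genes of B complex activation and 4 of 5 of the Prp19 complex and catalysis fell. Over all genes 34.2% rose and 38.1% fell, and 72.2% moved in either direction.

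The Sm ring proteins, which assemble on the small nuclear RNAs U1, U2, U4 and U5 and are shared by those snRNPs, had mostly higher counts in Nono-KO cells. The 7 tested genes held 5 that rose (71.4%, against 34.2% of all genes), 0 that fell and 2 that did not pass. At the study's own threshold 0 of these 7 genes rose. Their median log2 fold change was 0.45. Their summed level was 854, 850 and 837 CPM in Nono-KO cells, against 650, 643 and 604 CPM in WT cells. Snrpd2 (SmD2) had 193, 192 and 174 CPM in Nono-KO cells, against 99.3, 97.9 and 106 CPM in WT cells, which is the largest change in the ring (log2 fold change 0.88, standard error 0.08, adjusted p = 3e-06 from edgeR). Its groups were far apart. Snrpf (SmF) had 121, 119 and 111 CPM in Nono-KO cells, against 80.3, 80.9 and 73.6 CPM in WT cells (0.58, standard error 0.08). Snrpe (SmE) had 76.2, 74.2 and 86.4 CPM in Nono-KO cells, against 57.0, 55.9 and 53.2 CPM in WT cells (0.51, standard error 0.09). Snrpg (SmG) had 108, 103 and 110 CPM in Nono-KO cells, against 82.4, 79.7 and 72.6 CPM in WT cells (0.45, standard error 0.09). SmE, SmF and SmG form a subcomplex before the ring closes, and the genes of all of them rose without overlap between the groups. Snrpb (SmB) had 252, 257 and 232 CPM in Nono-KO cells, against 218, 213 and 208 CPM in WT cells (0.21, standard error 0.08, adjusted p = 0.0286 from edgeR). This call is the least firm of the ring: it was lost in 7 of 12 alternative analyses, among them total-count scaling and leaving out Nono-KO 1, Nono-KO 2, WT 2 or WT 3, with an adjusted p of up to 0.135 from edgeR.

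The other members of the ring overlapped between the groups. Snrpd1 (SmD1) had 39.4, 39.2 and 45.3 CPM in Nono-KO cells, against 46.2, 45.6 and 36.3 CPM in WT cells (-0.05, standard error 0.11). Snrpd3 (SmD3), the partner of SmB, had 65.0, 65.4 and 78.6 CPM in Nono-KO cells, against 66.8, 70.4 and 53.8 CPM in WT cells (0.13, standard error 0.12). In both genes WT 3 was the lowest and Nono-KO 3 the highest of the 6 libraries or close to it. Snrpn, the paralog of Snrpb that neurons express from the paternal allele, was near 0, with 0, 1 and 1 counts in Nono-KO libraries and 3, 2 and 2 in WT libraries, so it was not tested and has no fold change here.

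**Figure D2:**
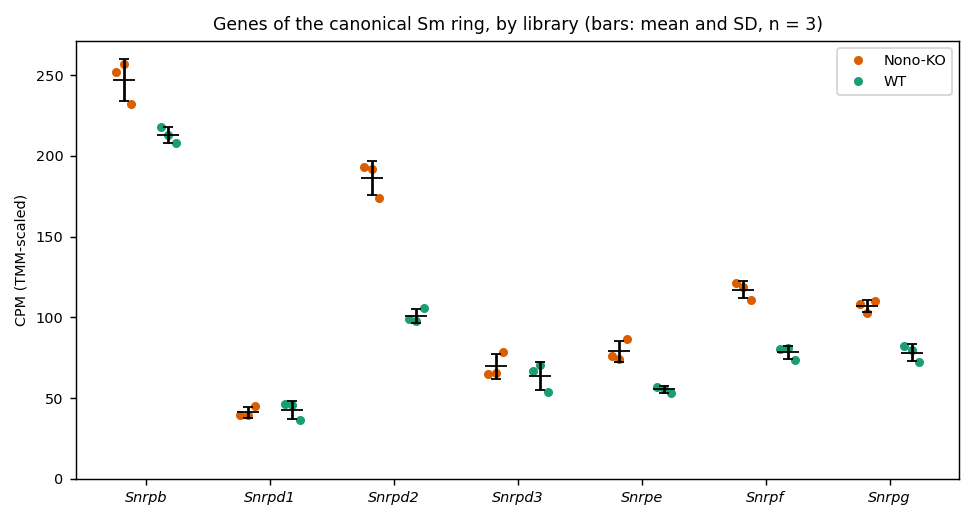
CPM (vertical axis, from 0) of the 7 tested genes of the canonical Sm ring in each Nono-KO library and each WT library, with the mean and SD of each group (n = 3). The Nono-KO points of Snrpd2, at 174 to 193 CPM, lie well above its WT points at 97.9 to 106 CPM, whereas those of Snrpd1 and Snrpd3 overlap.

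The promoters of the members were read from RefSeq (build GRCr8, 250 bases before to 50 after the annotated start), where 49 of the 55 members were matched, to see whether members that moved together share letters near the start. The letters CCGGAAG, the core that ETS-family factors bind, were found on either strand in 15 of 49 member promoters (30.6%), against 9.2% of all 27457 promoters and 18.8% of those of 9354 tested genes. They stood in 6 of 15 risen, 5 of 19 fallen and 4 of 14 not passed members. The letters GCATGCGC, the core of the NRF1 motif, stood in 4 of 15 risen (Lsm7, Lsm10, Sf3a2 and U2af1l4), 0 of 19 fallen and 2 of 14 not passed members (12.2% of member promoters, 5.3% of those of tested genes and 2.7% of all), a count with no test. The same was counted for CCAAT (40.8% of members, 38.4% of tested genes), the GC box GGGCGG (44.9%, 63.5%), the CRE TGACGTCA (8.2%, 3.3%), the YY1 motif AAGATGGCG (6.1%, 4.0%) and the E-box CACGTG (6.1%, 9.7%), all on both strands. Of all 27457 promoters, 37.7% held CCAAT, 34.9% GGGCGG, 1.9% TGACGTCA, 1.9% AAGATGGCG and 6.7% CACGTG. A match is a description of the letters and not a bound site. No motif was counted apart for all risen and all fallen genes, so the splits by direction are not known to be particular to the members. The 150 bases before the start are printed 5′ to 3′ on the gene's strand for the Sm genes Snrpe and Snrpg, which rose and hold the ETS letters, for the risen Lsm7 and Sf3a2, which hold the NRF1 letters, and for the fallen members Prpf18, which holds the ETS letters but not the NRF1 letters, and Sf3b1, which holds neither. Capitals mark every match to these motifs or to their reverse complement. In Snrpe the ETS letters of both strands overlap, as do the NRF1 letters in Lsm7 and at the end nearest the start in Sf3a2. Snrpe lies at chr13:47609252-47609401 on the minus strand, Snrpg at chr4:120369561-120369710 on the plus strand, Lsm7 at chr7:9507223-9507372 on the plus strand, Sf3a2 at chr7:9566206-9566355 on the minus strand, Prpf18 at chr17:78539740-78539889 on the plus strand and Sf3b1 at chr9:64026720-64026869 on the minus strand, all in GRCr8.
Snrpe: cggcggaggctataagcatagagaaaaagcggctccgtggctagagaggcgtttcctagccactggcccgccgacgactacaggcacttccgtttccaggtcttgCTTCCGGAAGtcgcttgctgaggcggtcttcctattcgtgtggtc
Snrpg: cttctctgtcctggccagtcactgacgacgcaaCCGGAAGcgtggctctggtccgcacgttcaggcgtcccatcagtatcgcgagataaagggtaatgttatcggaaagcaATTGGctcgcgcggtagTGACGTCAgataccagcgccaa
Lsm7: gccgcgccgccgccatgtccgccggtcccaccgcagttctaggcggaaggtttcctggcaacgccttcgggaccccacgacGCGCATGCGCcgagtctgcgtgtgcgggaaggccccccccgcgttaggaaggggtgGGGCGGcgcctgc
Sf3a2: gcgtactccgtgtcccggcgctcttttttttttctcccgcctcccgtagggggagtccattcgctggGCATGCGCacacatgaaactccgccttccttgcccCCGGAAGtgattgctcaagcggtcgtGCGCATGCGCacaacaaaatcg
Prpf18: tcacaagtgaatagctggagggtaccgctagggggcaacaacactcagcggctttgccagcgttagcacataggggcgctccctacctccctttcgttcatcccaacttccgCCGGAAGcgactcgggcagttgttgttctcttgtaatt
Sf3b1: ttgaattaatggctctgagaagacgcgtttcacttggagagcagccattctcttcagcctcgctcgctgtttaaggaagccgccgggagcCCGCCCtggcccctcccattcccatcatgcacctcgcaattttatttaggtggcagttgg

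The U1 snRNP, which recognises the start of the intron, held the member with the largest rise. Of 5 members tested 2 rose, 2 fell and 1 did not pass, against 34.2% risen and 38.1% fallen over all genes. Prpf40b, related to the yeast U1 protein Prp40, had 51.7, 52.0 and 47.4 CPM in Nono-KO cells, against 17.2, 16.4 and 20.4 CPM in WT cells (log2 fold change 1.48, standard error 0.11, adjusted p = 4.93e-07 from edgeR). Its groups were far apart. In RefSeq the locus of Prpf40b overlaps that of Mcrs1, which did not pass (0.11, adjusted p = 0.367 from edgeR). Whether reads were counted by strand is not stated, so reads of overlapping genes may have been mixed.

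Snrpc (U1-C), which steadies the pairing of U1 with the splice site, also rose, with 95.8, 88.2 and 91.9 CPM in Nono-KO cells, against 63.3, 56.3 and 56.5 CPM in WT cells (0.65, standard error 0.09). Prpf39, an accessory U1 protein, had 2.05, 2.06 and 2.59 CPM in Nono-KO cells, against 3.73, 5.83 and 4.12 CPM in WT cells (-1.02, standard error 0.24, adjusted p = 0.00204 from edgeR), from 35 to 49 counts in Nono-KO libraries and 74 to 109 in WT libraries. In RefSeq Prpf39 overlaps Fkbp3, which had 708 to 1111 counts and did not pass (0.10), so the same limit holds for Prpf39. Snrpa (U1-A), which binds a stem-loop of U1, had 102, 109 and 104 CPM in Nono-KO cells, against 121, 97.5 and 108 CPM in WT cells (-0.06, standard error 0.09). Its groups overlapped.

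The U2 snRNP, which binds the branch site, was divided between subunits of the same complexes. Of 11 members 2 rose (18.2%, against 34.2% of all genes), 5 fell (45.5%, against 38.1%) and 4 did not pass, with a median of 0.04. Sf3b1, the large scaffold of SF3b that clamps the branch site helix, had 27.3, 30.2 and 31.2 CPM in Nono-KO cells, against 66.9, 90.8 and 80.7 CPM in WT cells (log2 fold change -1.43, standard error 0.12, adjusted p = 1.12e-06 from edgeR). Sf3b3, a propeller protein of the same complex, had 119, 116 and 111 CPM in Nono-KO cells, against 198, 186 and 205 CPM in WT cells (-0.77, standard error 0.08). Both fell with wide gaps between the groups. The smallest SF3b subunit gene, Sf3b5, moved the other way, with 261, 270 and 241 CPM in Nono-KO cells, against 150, 157 and 163 CPM in WT cells (0.71, standard error 0.08, adjusted p = 1.17e-05). Sf3b6, whose protein touches the branch site adenosine, had 17.1, 14.8 and 25.2 CPM in Nono-KO cells, against 29.0, 35.4 and 24.3 CPM in WT cells (-0.63, standard error 0.19, adjusted p = 0.0117). It fell by the test although Nono-KO 3 lay above WT 3. The abundant transcripts Sf3b2 and Sf3b4 did not pass. Sf3b2 had 391, 397 and 385 CPM in Nono-KO cells, against 412, 341 and 372 CPM in WT cells (0.06, standard error 0.09). Sf3b4 had 270, 271 and 277 CPM in Nono-KO cells, against 242, 228 and 251 CPM in WT cells (0.18, standard error 0.08, adjusted p = 0.0506). Its groups did not overlap, and it passed in 4 of 12 alternative analyses, among them DESeq2 and the one without WT 3.

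SF3a, the trimer that joins SF3b to U2, was divided too. Sf3a1 had 99.1, 98.7 and 90.9 CPM in Nono-KO cells, against 139, 121 and 157 CPM in WT cells (-0.53, standard error 0.10). Sf3a3 had 16.2, 13.2 and 16.3 CPM in Nono-KO cells, against 25.3, 28.9 and 25.0 CPM in WT cells (-0.79, standard error 0.12). Sf3a2 rose, with 164, 174 and 153 CPM in Nono-KO cells, against 119, 95.1 and 129 CPM in WT cells (0.52, standard error 0.11, adjusted p = 0.00143 from edgeR). In RefSeq Sf3a2 overlaps Plekhj1, which rose as well (0.93), and Sf3b6 overlaps Fkbp1b, which rose (0.67) while Sf3b6 fell. The proteins that sit directly on U2 RNA, Snrpa1 (U2-A′) and Snrpb2 (U2-B″), did not pass, with log2 fold changes of 0.04 and 0.08. Snrpb2 stood at 26.4 CPM in Nono-KO 3 and at 17.3 and 15.4 CPM in the other Nono-KO libraries.

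The U2AF proteins mark the end of the intron for U2. U2af1l4, a paralog of the small subunit, had 17.6, 19.1 and 17.7 CPM in Nono-KO cells, against 15.8, 13.0 and 13.0 CPM in WT cells (0.38, standard error 0.13, adjusted p = 0.0177 from edgeR). This call was lost under total-count scaling and without Nono-KO 2, WT 2 or WT 3, with an adjusted p of up to 0.0703. The small subunit U2af1, which reads the AG at the splice site, had 86.9, 89.3 and 91.0 CPM in Nono-KO cells, against 73.3, 84.8 and 78.4 CPM in WT cells (0.18, standard error 0.09, adjusted p = 0.0861). The large subunit U2af2, which binds the pyrimidine tract, had 304, 296 and 264 CPM in Nono-KO cells, against 266, 252 and 293 CPM in WT cells (0.09, standard error 0.09). Neither passed, and only U2af2 overlapped between the groups. The log2 ratio of U2af1l4 to U2af1 counts differed by 0.20 between Nono-KO and WT (exact two-sided permutation p = 0.4, adjusted p = 0.4 over 4 ratios). The difference was 0.35 without WT 1 and 0.10 without WT 2.

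**Figure D3:**
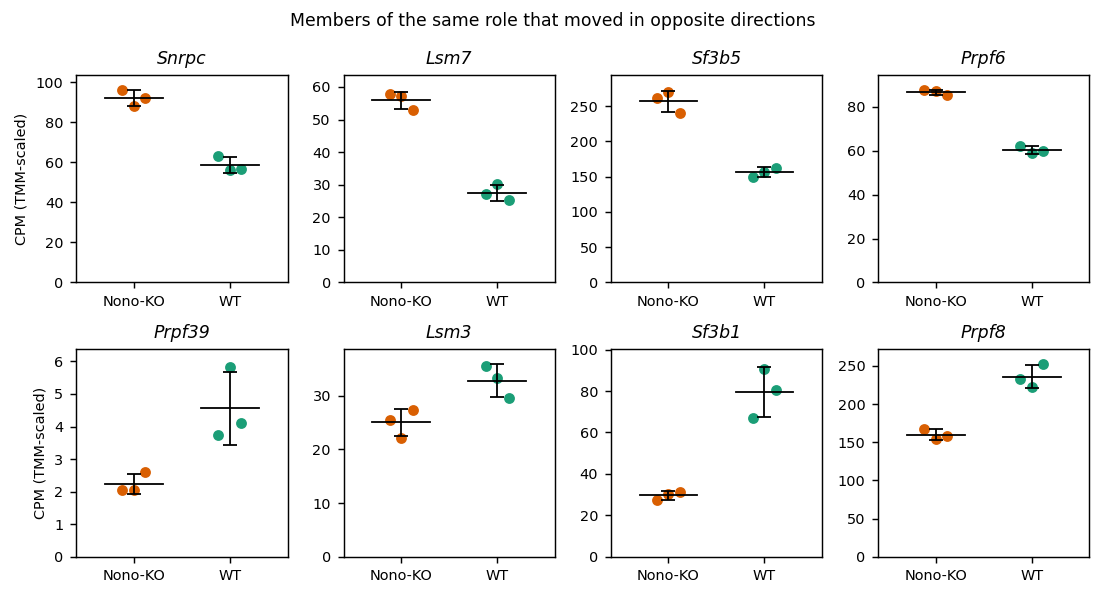
CPM (vertical axes, from 0) in each Nono-KO and WT library, with the mean and SD (n = 3), of 4 members that rose (upper row) and of 4 that fell (lower row), each upper gene standing above a member with the same role. Snrpc stands at 88.2 to 95.8 CPM in Nono-KO against 56.3 to 63.3 CPM in WT, and Prpf39 below it at 2.05 to 2.59 CPM against 3.73 to 5.83 CPM.

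The LSm2-8 ring, which holds the 3′ end of U6, moved in both directions. Of 7 members 2 rose, 2 fell (28.6% each, against 34.2% and 38.1% of all genes) and 3 did not pass, with a median of 0.07. Lsm7 had 57.7, 57.1 and 52.9 CPM in Nono-KO cells, against 27.2, 30.2 and 25.2 CPM in WT cells (log2 fold change 1.02, standard error 0.10, adjusted p = 3.24e-06 from edgeR). It kept its call in every alternative run. Lsm4 had 79.5, 84.8 and 73.6 CPM in Nono-KO cells, against 72.9, 57.0 and 61.4 CPM in WT cells (0.31, standard error 0.11, adjusted p = 0.0196). Lsm3 had 25.5, 22.2 and 27.3 CPM in Nono-KO cells, against 35.6, 33.2 and 29.5 CPM in WT cells (-0.39, standard error 0.12, adjusted p = 0.00953). Lsm6 had 12.5, 12.6 and 13.2 CPM in Nono-KO cells, against 18.0, 26.0 and 13.4 CPM in WT cells (-0.58, standard error 0.20, adjusted p = 0.0214). For Lsm6 the lowest WT library, WT 3, was next to the Nono-KO libraries. Some of these calls were lost in the alternatives. Lsm4 lost its call without Nono-KO 1, Nono-KO 2, WT 2 or WT 3 and under total-count scaling (adjusted p of up to 0.085 from edgeR), and Lsm3 without Nono-KO 2 (0.0643). Lsm6 lost its call when any Nono-KO library or WT 2 was left out (up to 0.109 as an adjusted p from edgeR), and its log2 fold change ran between -0.79 and -0.30 over the alternatives, the smallest change being that without WT 2. Lsm2 had 58.5, 56.9 and 55.9 CPM in Nono-KO cells, against 54.0, 52.3 and 56.8 CPM in WT cells (0.07), and Lsm5 (0.22) and Lsm8 (-0.15) did not pass either.

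The other LSm proteins serve outside U6. Lsm1 takes the place of Lsm8 in the cytoplasmic ring that binds mRNA for decapping. It had 22.9, 22.5 and 26.7 CPM in Nono-KO cells, against 20.5, 19.4 and 16.5 CPM in WT cells (0.35, standard error 0.12, adjusted p = 0.0232 from edgeR), and lost its call under total-count scaling and without Nono-KO 3 or WT 3 (adjusted p of up to 0.1). In RefSeq Lsm1 overlaps Bag4, which fell (-0.60). The log2 ratio of Lsm1 to Lsm8 was 0.61 ± 0.10 in Nono-KO cells and 0.12 ± 0.10 in WT cells (SD, n = 3 each; difference 0.49, exact two-sided permutation p = 0.1, the smallest that 3 against 3 libraries can give, adjusted p = 0.133 over 4 ratios). The ratio is not per length, so only its difference between the groups is read. Every Nono-KO library lay above every WT library in this ratio, which no scaling can change. Lsm10 and Lsm11 replace SmD1 and SmD2 in the U7 snRNP, which cuts the ends of histone mRNAs, and they moved apart. Lsm10 had 16.4, 15.3 and 16.4 CPM in Nono-KO cells, against 14.0, 11.1 and 9.90 CPM in WT cells (0.46, standard error 0.15, adjusted p = 0.0142), and lost its call without WT 3 (adjusted p = 0.0663). Lsm11 had 19.1, 17.0 and 18.5 CPM in Nono-KO cells, against 33.2, 30.4 and 31.2 CPM in WT cells (-0.80, standard error 0.11, adjusted p = 3.42e-05). Lsm12, which carries an LSm fold but belongs to none of these rings, had 64.0, 63.4 and 75.1 CPM in Nono-KO cells, against 70.2, 73.6 and 67.8 CPM in WT cells (-0.06, standard error 0.09).

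The U4/U6 and U5 snRNPs enter the spliceosome together as a tri-snRNP. Of 4 U4/U6 members 0 rose, 2 fell and 2 did not pass, against 34.2% risen and 38.1% fallen over all genes. Snu13, which binds a bend in U4 and also serves in box C/D ribonucleoproteins, had 58.2, 52.9 and 57.0 CPM in Nono-KO cells, against 71.7, 77.4 and 72.8 CPM in WT cells (log2 fold change -0.40, standard error 0.09, adjusted p = 0.00123 from edgeR). Prpf4 had 20.9, 20.3 and 23.8 CPM in Nono-KO cells, against 29.1, 29.4 and 23.8 CPM in WT cells (-0.34, standard error 0.12, adjusted p = 0.0247), and it lost its call without Nono-KO 1, Nono-KO 2 or WT 2 (adjusted p of up to 0.105). Its partner Prpf3 (-0.29, adjusted p = 0.075) did not pass. Prpf31, which joins U4 to the rest of the particle, had 43.7, 43.2 and 48.2 CPM in Nono-KO cells, against 42.8, 39.1 and 34.2 CPM in WT cells (0.22, standard error 0.10, adjusted p = 0.0794). The groups of Prpf31 just failed to overlap.

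Of the 3 U5 members 1 rose, 1 fell (33.3% each, against 34.2% and 38.1% of all genes) and 1 did not pass. Prpf8, the protein at the heart of the catalytic site, had 168, 154 and 158 CPM in Nono-KO cells, against 233, 223 and 252 CPM in WT cells (-0.56, standard error 0.08, adjusted p = 8.68e-05 from edgeR). Prpf6, which bridges U5 and U4/U6, had 87.7, 87.1 and 85.3 CPM in Nono-KO cells, against 62.3, 59.0 and 59.7 CPM in WT cells (0.52, standard error 0.08, adjusted p = 0.000112). The GTPase Eftud2, the close partner of Prpf8, had 181, 178 and 180 CPM in Nono-KO cells, against 194, 165 and 185 CPM in WT cells (-0.01, standard error 0.08). Prpf6 and Prpf8 were separate between the groups in opposite directions, while Eftud2 overlapped.

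All 3 members that act as the complex is activated had lower counts in Nono-KO cells, with a median of -1.13. Over all genes 38.1% fell. Prpf4b, a kinase whose substrates include proteins of the U4/U6 and U5 snRNPs, had 3.86, 4.68 and 4.82 CPM in Nono-KO cells, against 8.51, 18.3 and 12.1 CPM in WT cells (log2 fold change -1.54, standard error 0.25, adjusted p = 0.000186 from edgeR). It had the largest fall of all members and the widest spread in WT, a coefficient of variation of 38.1%. Prpf38b had 13.5, 12.1 and 13.6 CPM in Nono-KO cells, against 23.1, 33.2 and 29.1 CPM in WT cells (-1.13, standard error 0.14, adjusted p = 2.62e-05). Prpf38a, needed for activation, had 11.4, 11.4 and 17.5 CPM in Nono-KO cells, against 18.4, 23.1 and 16.9 CPM in WT cells (-0.53, standard error 0.18, adjusted p = 0.021). For Prpf38a Nono-KO 3 lay above WT 3, and the call was lost without Nono-KO 1, Nono-KO 2 or WT 2 (adjusted p of up to 0.0806).

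Of the 5 members of the Prp19 complex and the catalytic stage 4 fell (80.0%, against 38.1% of all genes) and 1 rose (20.0%, against 34.2%). Every member's groups were separate. Over all genes every Nono-KO library lay above every WT library in 36.1% and below in 39.0%. Prpf19, the ubiquitin ligase that gives the complex its name, had 729, 754 and 672 CPM in Nono-KO cells, against 478, 485 and 507 CPM in WT cells (log2 fold change 0.55, standard error 0.08, adjusted p = 5.72e-05 from edgeR). Its direct partner Cdc5l, a Myb-like protein, moved the other way, with 22.5, 22.7 and 23.2 CPM in Nono-KO cells, against 38.2, 52.6 and 47.1 CPM in WT cells (-1.01, standard error 0.12, adjusted p = 1.75e-05). The Nono-KO libraries of Cdc5l differed by less than 1 CPM from each other. Prpf18, a factor of the second step of splicing, had 6.49, 6.62 and 7.52 CPM in Nono-KO cells, against 14.4, 18.4 and 18.6 CPM in WT cells (-1.32, standard error 0.15, adjusted p = 1.07e-05). Aqr, a helicase bound to the intron, had 26.1, 26.9 and 31.9 CPM in Nono-KO cells, against 45.0, 59.7 and 51.9 CPM in WT cells (-0.88, standard error 0.12). Snw1, a scaffold of the active site, had 13.1, 10.1 and 12.0 CPM in Nono-KO cells, against 16.7, 23.3 and 17.6 CPM in WT cells (-0.71, standard error 0.16). In RefSeq Snw1 overlaps Slirp, which rose (0.52, adjusted p = 0.00567).

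Snrpd2l and Snrpel1, taken by the name rule, are annotated as pseudogenes in RefSeq and were given no role. Snrpd2l had 1.99, 2.50 and 2.75 CPM in Nono-KO cells, against 1.34, 0.856 and 0.946 CPM in WT cells (log2 fold change 1.20, standard error 0.27, adjusted p = 0.00189 from edgeR). Its count was 1.03%, 1.31% and 1.58% of that of Snrpd2 in Nono-KO libraries, against 1.35%, 0.874% and 0.889% in WT libraries. Snrpel1 had 5.21, 6.68 and 7.04 CPM in Nono-KO cells, against 3.98, 3.69 and 3.89 CPM in WT cells (0.71, standard error 0.18, adjusted p = 0.00422), and 6.84%, 9.0% and 8.15% of the Snrpe count in Nono-KO libraries, against 6.99%, 6.6% and 7.32% in WT libraries. As shares of the parent genes the groups overlapped in both. In RefSeq Snrpd2l also overlaps P4ha1, which had 3342 to 4480 counts, against 16 to 52 for Snrpd2l. Reads may have been split between copy and parent, or between overlapping genes, so both changes are uncertain.

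**Figure D4:**
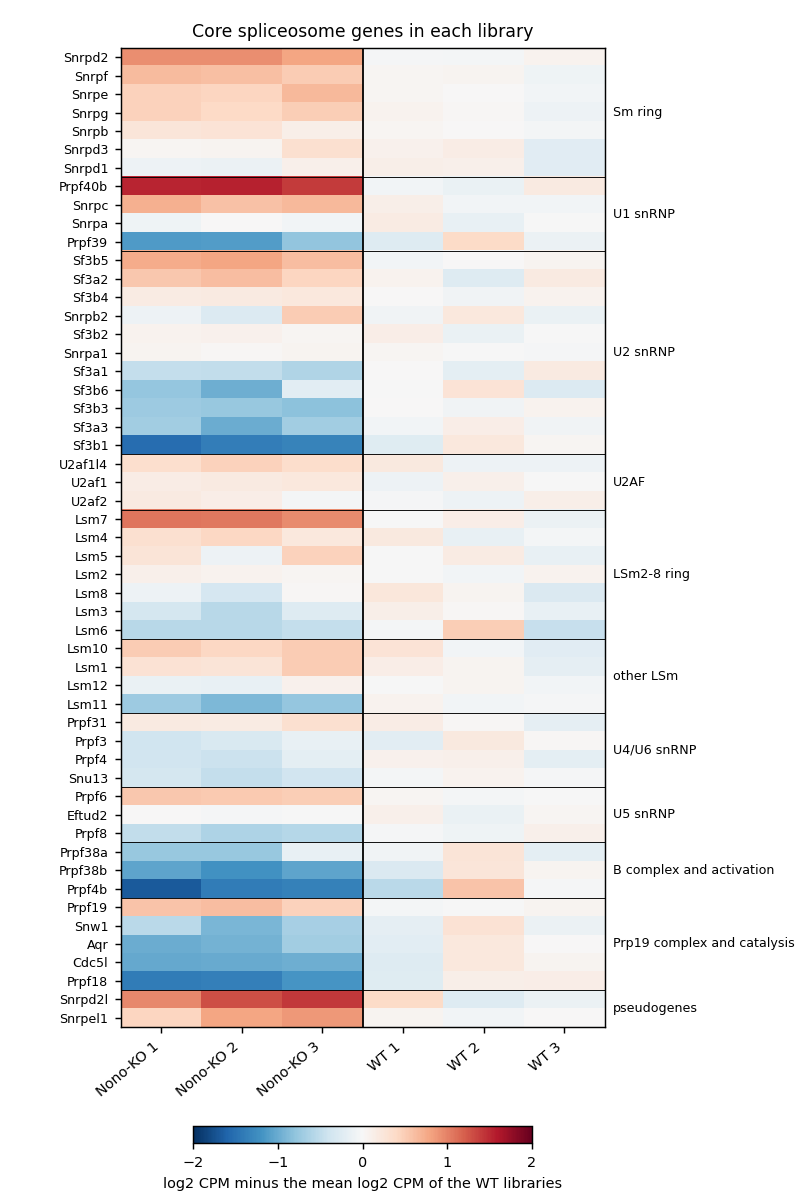
Level of the tested members (rows, by role) in each Nono-KO and WT library (columns), as log2 CPM minus the mean log2 CPM of the WT libraries. The colour scale runs from -2 (blue) to 2 (red). The blocks of the B complex and of the Prp19 complex without Prpf19 are mostly blue in the Nono-KO libraries. Prpf38a in Nono-KO 3 is nearly uncoloured, at 17.5 CPM against 16.9 to 23.1 CPM in WT. In many rows of these blocks WT 2 is the reddest WT library.

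Members differed in how even they were within a group, and the order of the libraries was not the same for risen and fallen members. Nono-KO 3 was the highest Nono-KO library for 30 of 54 members (55.6%, against 41.7% of all genes), and Nono-KO 2 the lowest for 24 (44.4%, against 32.2%). Among the WT libraries WT 2 was the highest for 22 members (40.7%, against 33.5%) and WT 1 for 20 (37.0%, against 33.8%), and WT 3 was the lowest for 22 (40.7%, against 27.6%). Among the 20 members that fell, Nono-KO 3 was the highest Nono-KO library for 14, and the highest WT library was WT 2 for 14 and WT 1 for 2. Among the 18 that rose, Nono-KO 3 was the highest Nono-KO library for 5, and the highest WT library was WT 1 for 11 and WT 2 for 2. The same split was not counted for all risen and all fallen genes, so it is not known to be particular to the members. The widest spreads in Nono-KO cells were those of Snrpb2 (coefficient of variation 30.0%), Sf3b6 (28.7%) and Prpf38a (26.2%), and among the widest in WT cells were those of Prpf4b (38.1%) and Lsm6 (33.6%). Eftud2 was the most even in Nono-KO cells (0.837%) and Snrpa1 in WT cells (2.15%). Of the 38 members that rose or fell, 29 kept their call in each of the 12 alternative analyses.

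Several members start beside another gene on the opposite strand, and those neighbours did not always move with them. Within 1000 bases of the start, RefSeq places such a gene for 14 members, and 10 of these neighbours were tested. Lsm7 and its neighbour Sppl2b both rose (Sppl2b log2 fold change 0.81, adjusted p = 3.73e-05 from edgeR), as did Sf3a2 and Plekhj1 (0.93), and Prpf4 and Cdc26 both fell (Cdc26 -0.49, adjusted p = 0.0125). Sf3b3 fell while Cog4 rose (0.53, adjusted p = 0.000186). Tfpt rose (0.74) beside Prpf31, which did not pass. The neighbours of Snrpd2 (Qpctl, 0.02), U2af1l4 (Psenen, 0.03), Lsm3 (Xpc, 0.31), Snrpd3 (Gucd1, -0.19) and Sf3a1 (Ccdc157, -0.27) did not pass.

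The rest of the pathway was read from lists of genes that the name rule does not take. Of 30 other snRNP proteins 10 rose, 9 fell and 11 did not pass, with a median of -0.08. Zmat5 (0.92, standard error 0.11) and Snrnp25 (0.76, standard error 0.12), both of the minor spliceosome, had the largest rises. Dhx15, a helicase that takes spliceosomes apart, had 17.5, 15.2 and 14.9 CPM in Nono-KO cells, against 47.7, 81.9 and 75.9 CPM in WT cells (log2 fold change -2.11, standard error 0.18), and the U2-associated U2surp also fell (-1.03, standard error 0.19). Of 33 partners of the Prp19 complex and splicing helicases 6 rose, 13 fell and 14 did not pass, with a median of -0.24. In this list Ctnnbl1, a partner of Cdc5l, rose (0.68, standard error 0.09), as did Ppil2 (0.48), while Cwc27 (-1.13) and Plrg1 (-0.88, standard error 0.11), a core subunit beside Prpf19 and Cdc5l, fell. Against the background of 34.2% risen and 38.1% fallen genes, the share that rose was 33.3% and 18.2% in these lists and the share that fell 30.0% and 39.4%.

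Genes that help to build snRNPs moved in both directions. Of 24 genes of snRNP assembly and import, which includes the SMN complex that loads the Sm ring and the methylosome that modifies Sm proteins, 5 rose (20.8%), 11 fell (45.8%) and 8 did not pass, with a median of -0.18. Ddx20 (Gemin3), the helicase of the SMN complex, fell (-1.92, standard error 0.14), and so did Ncbp1 (-1.51, standard error 0.13), the large subunit of the nuclear cap-binding complex. Coprs (1.45, standard error 0.15), a partner of Prmt5, and Gemin8 (0.93, standard error 0.12) rose. Of 14 exon junction complex genes 4 rose (28.6%), 6 fell (42.9%) and 4 did not pass. Sap18 (0.62) and Upf3a (0.34) were among the risen and Pnn (-1.30) and Rnps1 (-0.36) among the fallen. Over all genes 34.2% rose and 38.1% fell.

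The partners of the LSm proteins outside splicing were also counted. The shares of all genes, given for comparison, were 34.2% risen and 38.1% fallen. Of 10 genes that work with the LSm1-7 ring in mRNA decay 0 rose, 4 fell and 6 did not pass. Their fallen share thus lies near that of all genes. Ddx6 (-1.90, standard error 0.16), a helicase that promotes decapping, and the exonuclease Xrn1 (-1.50, standard error 0.22) had the largest falls. Of 8 tested genes of U7 and histone mRNA processing 1 rose (Sympk, 0.56), 6 fell and 1 did not pass, with a median of -0.81. Cpsf2 (-1.80, standard error 0.15) and Npat (-1.67, standard error 0.29), the activator of histone genes, had the largest falls. Histone mRNAs are made in S phase, so the cell cycle list is given beside them. Of its 25 genes 5 rose (20.0%), 11 fell (44.0%) and 9 did not pass, against the same shares of all genes. Mki67 (-1.91) and Top2a (-1.86) were among the fallen, and Mcm3 (0.63) and Mcm5 (0.61) among the risen. The summed level of the list was 1990, 1930 and 1900 CPM in Nono-KO cells, against 2450, 1810 and 1800 CPM in WT cells. So WT 1 stood apart from the other WT libraries. The part of the cell cycle in the members' values was not tested.

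**Figure D5:**
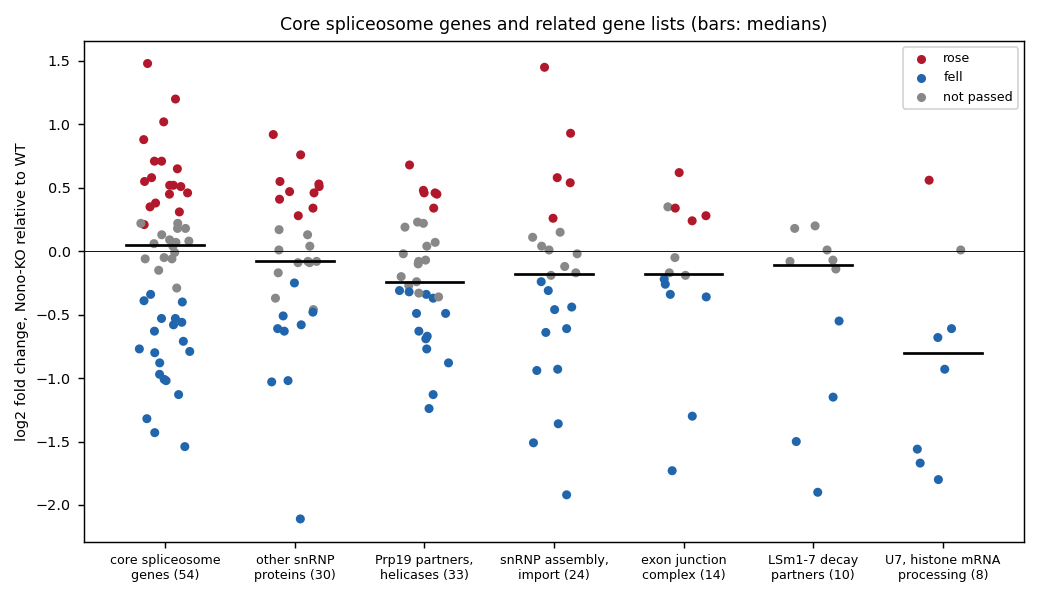
Log2 fold change between Nono-KO and WT (vertical axis, positive where Nono-KO is higher) of each tested gene of the core spliceosome and of 6 related lists (horizontal axis, number of genes in brackets), with colours for genes that rose, fell or missed the threshold of 0.05 for the adjusted p, with the median of each list as a bar. The medians run from 0.05 for the 54 core spliceosome genes to -0.81 for U7 and histone mRNA processing.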

How the data were processed

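RNA of 6 H9c2 libraries was measured, 3 Nono-KO and 3 WT. The authors deposited raw whole-number counts per gene symbol, with no scaling and no pooling, and the single-library files hold the same counts as the table. Trimmomatic, HISAT2 and HTSeq with the build mRatBN7.2 stand in the submitters' processing notes, without versions, and Bowtie2 with Rn6 in the methods of the paper. Annotation and strand setting of the counting are not stated, so shared reads may have been split or dropped. Groups came from the labels.

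The members and the gene lists were chosen with earlier results of these data known. Counts were fitted over the whole table in R 4.3.3 with edgeR 4.0.16 (quasi-likelihood test, robust dispersions, TMM, filterByExpr, which kept 12028 of 16319 genes) and Benjamini-Hochberg adjustment over all of these. The standard error was derived from the log2 fold change and the F statistic. Ratios within a library used counts plus 0.5 and exact permutation tests. Library totals limit the precision of genes with few counts. Values by library were planned for the 8 members with the largest rise and the 8 with the largest fall, the 2 with most CPM of each role and the ratio pairs, and are given for further members whose call is discussed. Of each other list up to 2 risen and 2 fallen genes with at least 5 CPM were named by size of change. Of the 4 ratios, that of Snrpn to Snrpb is not given, as it rests on counts of 0 to 3. The values of 1 member are not reported here by name, though the counts and medians include it.

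Alternatives were DESeq2 1.42.0, RLE size factors, total counts, no filter, a stricter filter (at least 10 counts in 3 libraries and a mean of 1 CPM), the replicate number as a block, leaving out each library, and the study's threshold. The code of the test was run on simulated counts in which few genes changed, whereas 72.2% of all genes were called in these data. That run checks the code and not the calls given here. RefSeq tables of GRCr8, another build than the authors', gave gene types, neighbours and promoters.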

Additional observations from a re-analysis of the deposited data

How the results depend on the processing

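Across DESeq2, RLE size factors, total counts, 2 other filters and the replicate block, 14 to 21 members rose and 20 to 21 fell, and with a library left out 14 to 19 rose and 16 to 21 fell. No member that rose or fell changed direction. Besides the calls named above as lost, Prpf3, Prpf31, Sf3b4 and U2af1 passed in 2, 2, 4 and 1 of the 12 alternatives. The median of the members was 0.08 with DESeq2, 0.10 with RLE size factors, 0.02 with no filter, -0.01 with total counts and 0.01 to 0.06 with a library left out, while the median of all genes ran between -0.11 (total counts) and 0.00 (RLE size factors). By role, RLE size factors raised the risen U2AF genes to 2 and the risen U4/U6 genes to 1, and total counts lowered the risen U2AF genes to 0, the risen LSm2-8 and other LSm genes to 1 each and the risen cell cycle genes to 3. With a library left out, 0 to 1 U2AF genes, 1 to 2 LSm2-8 genes, 0 to 2 other LSm genes and 0 to 1 U4/U6 genes rose, and 0 to 2 LSm2-8, 1 to 3 U4/U6 and 2 to 3 B complex genes fell. In the other lists 3 to 6 cell cycle genes, 2 to 5 exon junction genes and 3 to 5 assembly genes then rose.

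At the study's threshold 3 members rose and 6 fell: by role 0 and 0 of the Sm ring, 1 and 1 of U1, 0 and 1 of U2, 0 and 0 of U2AF, 1 and 0 of LSm2-8, 0 and 0 of the other LSm, 0 and 0 of U4/U6, 0 and 0 of U5, 0 and 2 of the B complex, 0 and 2 of the Prp19 complex. In the other lists 0 and 3 of the other snRNP proteins, 0 and 2 of the Prp19 partners, 1 and 3 of assembly, 0 and 2 of the exon junction complex, 0 and 3 of the LSm1-7 decay partners, 0 and 3 of U7 processing and 0 and 7 of the cell cycle rose and fell. Over all genes 10.8% rose and 18.7% fell at this threshold.

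The replicate numbers did not pair the samples (correlations of same-numbered deviations 0.0615, -0.194 and -0.223). With the number as a replicate block 17 members rose and 20 fell, the median was 0.05 and the only member call that changed was that of Snrpb. Not every library correlated best with its own number, as Nono-KO 3 did so with WT 2 (0.291). With 3 libraries a group the exact test of the ratios cannot fall below 0.1.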
